A study of Porolithon cf. onkodes and Sporolithon durum with 38 samples.

Results

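In the de novo transcriptome of the crustose coralline alga Sporolithon durum, 150 components held partner transcripts that were counted mainly in different libraries. A component is the group of transcripts that the assembler Trinity built from 1 cluster of reads. How much sequence the transcripts of a component share was not examined here. In each of the 150, at least 1 transcript was found mainly in libraries SD1, SD2 and SD5, and at least 1 other was found mainly in the remaining 16 libraries. Members were chosen from the counts as follows. CPM (a transcript's counts scaled by the column total) were computed, the mean CPM of a transcript over SD1, SD2 and SD5 was divided by its mean over the other 16 libraries after adding 0.5 CPM to both, and the log2 of this ratio was called R. A component met the rule when it had a transcript with R above 3 and a transcript with R below -3, each with at least 12 counts on its high side. Components were ranked by the summed mean CPM of the former transcripts in the 3 libraries times that of the latter in the 16, and the first 150 were kept. Of 131438 components, 34359 had a count and 10168 had at least 2 transcripts with a count. Of these 10168, 1791 met the rule (17.6%).

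Fragments of S. durum had been kept for 3 months in a control (27.2 °C, pH 8.0, 450 µatm pCO2), at elevated temperature (T; 29.5 °C, pH 8.0, 450 µatm), at reduced pH (pH; 27.2 °C, pH 7.7, 1000 µatm) or under both stressors (T + pH; 29.5 °C, pH 7.7, 1000 µatm). The pigmented surface layer was sequenced by CEL-Seq2, which counts molecules at the 3′ end of poly(A) RNA by unique molecular identifiers (UMIs), in 4 control libraries and in 5 libraries of each other treatment. SD1 and SD2 were T libraries and SD5 was a pH library, so that the 16 others were 4 control, 3 T, 4 pH and 5 T + pH libraries. Total counts were 1497574 to 2556820 in the 3 and 262942 to 21542260 in the 16. For 18 of the 19 libraries the column total stands under the name of another library in the list of totals that the authors give, and the totals of SD1, SD2 and SD5 stand under a T + pH, a T and a control library. The column names were used here, and each statement on a treatment rests on them.

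Crustose coralline algae are red algae that deposit calcium carbonate in their cell walls, and many of their named species hold several genetic lineages that look alike. When reads of more than 1 sequence version of a gene are assembled together, the assembler can write the versions as separate transcripts of 1 component. Separate transcripts of a component can also be splice forms, copies of a gene family, or incomplete pieces of 1 RNA, and reads that match several of them can be divided among them. Component, gene and isoform numbers follow the Trinity names (DN, c, g and i), where transcripts that share the g number belong to what Trinity calls 1 gene. The files pair these names with no protein, so that no role can be given for the members and the tissue could not be compared with marker genes. They assign no library to a lineage either, and the transcripts are named below by where they were high: 3-high for those of SD1, SD2 and SD5, and 16-high for those of the other libraries.

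The 150 components had 1152 transcripts, of which 1108 had a count: 377 were 3-high, 397 were 16-high and 334 lay between the limits. R was 3.004 to 9.63 in the 3-high (median 4.87) and -7.62 to -3.005 in the 16-high (median -4.68). These values chose the members and were not tested. Among all 51953 transcripts with at least 5 counts, 20.3% were above the upper limit and 16.5% below the lower limit, so that transcripts of either kind were common in the whole table. The 3-high transcript nearest to the limit was DN198001_c0_g5_i1 (R 3.004), and the highest R below it in these components was 2.94 in DN195261_c0_g1_i1. On the other side, DN196862_c0_g1_i5 was just inside (R -3.005) and DN196862_c0_g1_i2 of the same component just outside (R -2.99). The product used for ranking was 1478565 at rank 1, 21068 at rank 150 (DN198064_c0) and 20848 in the next component (DN193874_c0).

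Summed over the 377 transcripts, the 3-high level was 45601 CPM in SD1, 47175 in SD2 and 47667 in SD5, and it was between 558.3 (SD7) and 1489 CPM (SD20) in the 16. The 397 16-high transcripts together had 2435 CPM in SD1, 2119 in SD2 and 2368 in SD5, against 46493 (SD18) to 71396 CPM (SD10) in the 16. Among counts that fell on either side, the 3-high transcripts took 94.9% in SD1, 95.7% in SD2 and 95.3% in SD5, and 0.857 to 2.34% in the 16, with a median of 1.90%. No library lay between these groups, and none held the transcripts of both sides at similar levels. The rule chose the transcripts by their difference between these same groups, so that nothing is read from this separation. All transcripts of the 150 components took 5.58 to 5.65% of the counts of the 3 libraries and 5.42 to 7.99% of those of the 16. The lowest of the latter, SD18, had the fewest counts.

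**Figure D1:**
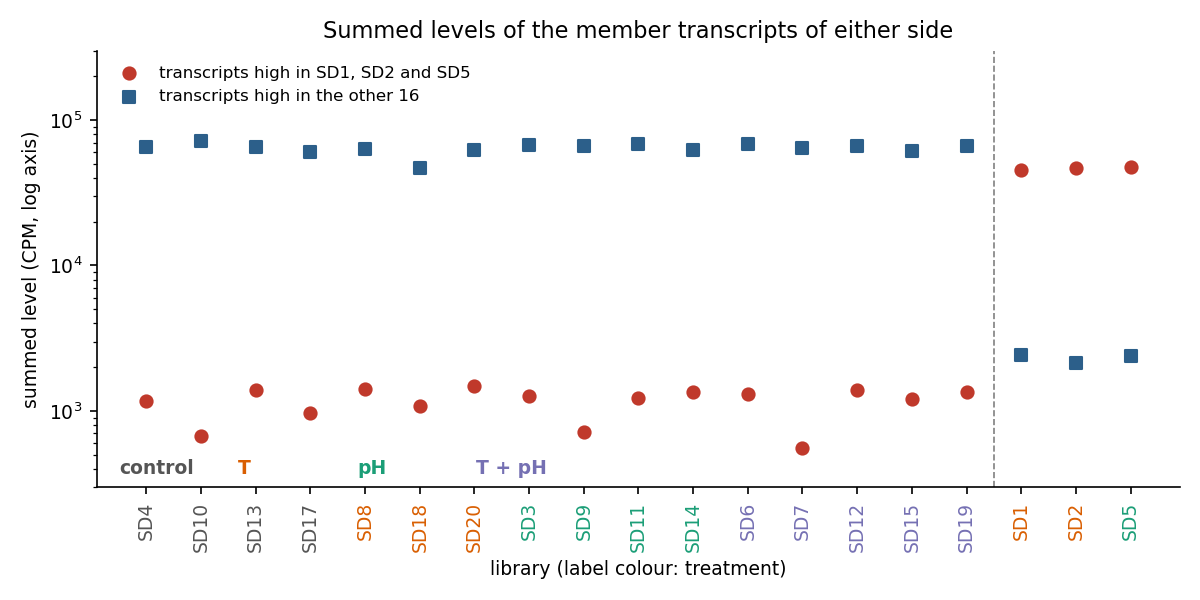
Summed CPM (log axis) of the 377 3-high transcripts (circles) and of the 397 16-high transcripts (squares) in each of the 19 libraries, whose names are coloured by treatment. The circles lie between 558.3 and 1489 CPM in the 16 libraries left of the dashed line and between 45601 and 47667 CPM in SD1, SD2 and SD5, while the squares do the reverse.

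Of the 377 3-high transcripts, 363 were higher in each of the 3 libraries than in any of the 16, where 28.6% of all tested transcripts were. Of the 397 16-high transcripts, 373 were higher in each of the 16 than in any of the 3, where 16.8% of all were. Since R chose the members, nothing is read from these counts. In SD1, SD2 and SD5, 374, 376 and 376 of the 377 3-high transcripts had a count, and 132 (SD18) to 284 (SD20) had one in the 16. The 16-high transcripts were nearly all counted in the 16 (388 to 397 of 397), and 320 to 344 of them still had a count in the 3. Few transcripts were without a count on the other side. The 27 3-high transcripts with 0 counts in the 16 had 20 to 306 counts in the 3. The most counts were in DN197661_c0_g5_i1, at least 973-fold higher in the 3 when the limit is set at 3 counts over the 61230068 counts of the 16 libraries together. The 26 16-high transcripts with 0 counts in the 3 had 152 to 2215 counts in the 16, the most in DN194915_c0_g2_i1, which was at least 77.4-fold higher in the 16 against 3 counts over the 6420241 counts of the 3.

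DN194211_c0 ranked first. Its leading 3-high transcript DN194211_c0_g6_i1 had 295.3, 659.0 and 458.7 CPM in SD1, SD2 and SD5, and 0 to 7.61 CPM in the 16 (median 0.43). Its leading 16-high transcript DN194211_c0_g4_i3 had 60.2, 147.1 and 61.4 CPM in the 3 and 494.4 to 1183 CPM in the 16 (median 779.4). The partners carry different g numbers, and the second 3-high transcript, DN194211_c0_g6_i2, had 465.1 CPM on average in the 3 against 0.87 in the 16. The component as a whole had 662.5, 1476 and 980.9 CPM in the 3, where SD2 and SD5 lay within the range of the 16 (977.5 to 2300 CPM) and SD1 below it.

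In DN200838_c3, ranked second, the partners belong to 1 Trinity gene. DN200838_c3_g1_i2 had 1020, 703.8 and 1286 CPM in the 3 and 3.99 to 40.0 CPM in the 16 (median 20.0). DN200838_c3_g1_i1 had 30.9, 17.8 and 34.7 CPM in the 3 and 437.4 to 1674 CPM in the 16 (median 1055). Here a large part of the component did not follow either side: its 6 transcripts between the limits had 962.4 ± 203.2 CPM in the 3 (SD, n = 3) and 1601 ± 392.8 CPM in the 16 (SD, n = 16), which was 41.7 and 59.9% of the total. The total was 2306 ± 648.1 CPM in the 3 and 2673 ± 733.1 CPM in the 16.

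DN198327_c6, at rank 3, had only 3 transcripts with a count and none between the limits. DN198327_c6_g2_i1 had 1074, 791.7 and 880.8 CPM in the 3 and 1.27 to 70.9 CPM in the 16 (median 43.8). DN198327_c6_g2_i2 had 122.8, 73.1 and 88.8 CPM in the 3 and 477.8 to 1204 CPM in the 16 (median 942.9). The total was 1042 ± 161.4 CPM in the 3 and 924.7 ± 236.8 CPM in the 16, and these ranges overlapped.

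In some of the first 20 components a partner was almost uncounted on its low side. In DN199311_c0, DN199311_c0_g2_i1 had 308.2, 557.9 and 556.2 CPM in the 3 and at most 1.42 CPM in the 16, while its partner DN199311_c0_g2_i3 had 7.43, 6.34 and 7.35 CPM in the 3 and 297.2 to 936.2 CPM in the 16. In DN200736_c0, DN200736_c0_g1_i2 had 666.1, 191.9 and 313.8 CPM in the 3 and at most 3.80 in the 16. Its partner DN200736_c0_g1_i3 had 9.78, 8.03 and 7.35 CPM in the 3 and 393.0 to 1101 CPM in the 16. In DN200548_c2, DN200548_c2_g4_i2 had 0.39, 0 and 0.67 CPM in the 3, from 2 counts in all, and 41.1 to 299.6 CPM in the 16, and its partner DN200548_c2_g1_i8 had 620.7, 380.8 and 313.8 CPM in the 3 and at most 7.61 CPM, in SD18, in the 16.

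Some partners varied widely between the libraries of their high side. In DN200384_c0 (rank 6), DN200384_c0_g2_i2 had 999.7 CPM in SD1 but 35.1 in SD2 and 72.8 in SD5, and its partner DN200384_c0_g1_i1 had 108 (SD7) to 1786 CPM (SD11) in the 16. In DN194206_c0 (rank 4), DN194206_c0_g2_i3 had 127.1 CPM in SD1, 584.6 in SD2 and 956.2 in SD5, and DN194206_c0_g2_i1 had 283.6 to 3104 CPM in the 16. In DN198687_c0 (rank 18), DN198687_c0_g3_i2 had 2867 CPM in SD8, a median of 106.1 CPM over the 16 and 8.49 CPM in SD6, which was little above the 5.08 CPM of SD1. The level of this partner thus varied more than 100-fold within the 16 libraries, while none of the 16 was below any of the 3.

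The other leading partners of the first 20 also did not overlap between the 3 and the 16. Of all tested transcripts, 28.6% were higher in each of the 3 than in any of the 16, and 16.8% the reverse. The rule chose the partners by this difference, and nothing is read from it. The 3-high transcripts DN199460_c0_g3_i1, DN197045_c0_g1_i3, DN201038_c3_g1_i3 and DN198806_c1_g2_i3 averaged 469.0, 152.9, 658.8 and 423.7 CPM in the 3 and 5.26, 0.68, 54.6 and 14.6 CPM in the 16. Their partners DN199460_c0_g3_i3, DN197045_c0_g1_i5, DN201038_c3_g1_i4 and DN198806_c1_g2_i1 averaged 428.5, 1088, 428.5 and 461.9 CPM in the 16 and 8.82, 14.4, 21.7 and 6.03 CPM in the 3. In all 4 components the partners shared a Trinity gene. The 3-high transcripts DN197427_c0_g1_i1, DN200290_c2_g3_i1, DN197859_c0_g1_i4 and DN197797_c2_g1_i2 averaged 277.4, 167.8, 248.8 and 132.1 CPM in the 3 against 5.75, 13.9, 21.1 and 5.70 CPM in the 16. Their partners DN197427_c0_g1_i3, DN200290_c2_g2_i2, DN197859_c0_g1_i1 and DN197797_c2_g1_i4 averaged 337.2, 701.0, 323.9 and 170.9 CPM in the 16 against 13.2, 15.7, 19.5 and 4.73 CPM in the 3. DN194756_c0_g1_i11, DN195354_c0_g3_i1 and DN200997_c2_g1_i2 averaged 71.2, 169.2 and 62.7 CPM in the 3 and 2.95, 6.01 and 0.39 CPM in the 16. Their partners DN194756_c0_g1_i18, DN195354_c0_g1_i4 and DN200997_c2_g3_i2 averaged 140.4, 202.6 and 1187 CPM in the 16 and 8.53, 10.4 and 19.9 CPM in the 3. The remaining 3-high leader, DN198687_c0_g3_i4, had 1223, 193.2 and 977.6 CPM in the 3 and at most 30.4 CPM in the 16.

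**Figure D2:**
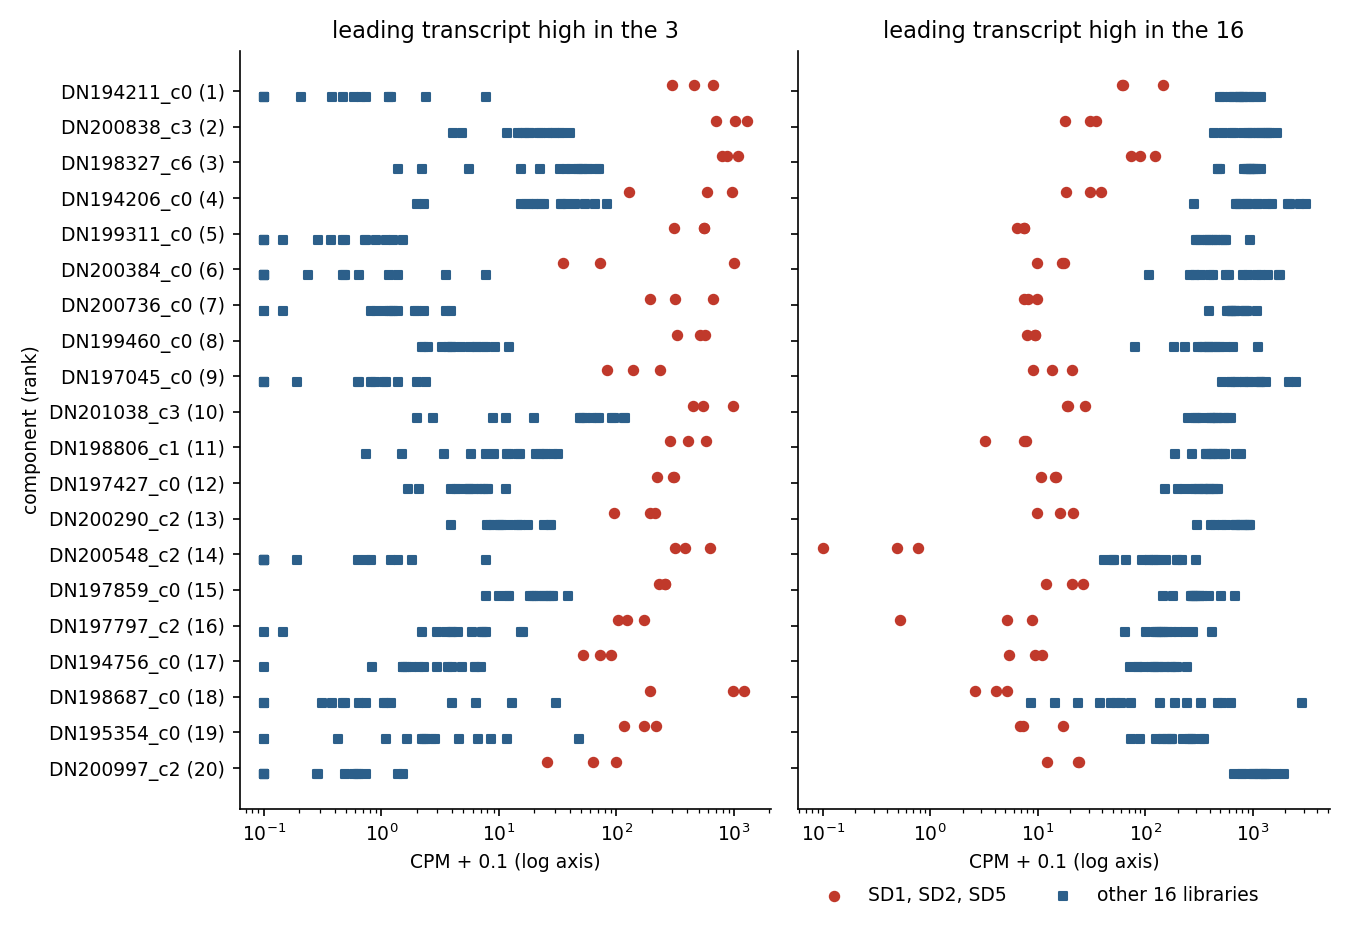
CPM + 0.1 (log axis) of the leading 3-high transcript (left) and the leading 16-high transcript (right) in each of the 20 highest ranked components, by library. Circles are SD1, SD2 and SD5 and squares are the other 16 libraries. In each row the circles and squares do not overlap, although they can lie close, as in DN198687_c0 on the right (5.08 and 8.49 CPM). The rule chose the transcripts by this difference.

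Over the 150 components the leading 3-high transcript did not overlap between the groups in 148, beside 28.6% of all tested transcripts, and the leading 16-high transcript in 145, beside 16.8%. The rule chose these transcripts by this difference, and nothing is read from the counts. The 3-high side of a component averaged 18.4 CPM (DN197339_c1) to 2463 CPM (DN198091_c3) in the 3, with a median of 192.9, and the 16-high side 34.4 CPM (DN196556_c5) to 2230 CPM (DN197045_c0) in the 16, with a median of 289.3. The sides differed by less than 1 on the log2 scale in 72 components, and the 16-high side was the larger in 101. Across the 1791 components that met the rule, the log2 levels of the sides had a Pearson correlation of 0.324 and a Spearman correlation of 0.326. This is a description across components, which share libraries and can share reads.

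The Trinity names show how the assembler placed the partners. The leading 3-high and 16-high transcripts shared their Trinity gene in 85 of 150 components (56.7%) and in 618 of the other 1641 that met the rule (37.7%). The ranking used the levels of the partners, and this difference was not tested. In 22 components a single 3-high transcript stood against a single 16-high transcript, in the same Trinity gene in 18 of them, and in 77 there were at least 2 on each side. Components held 2 to 21 transcripts with a count (median 7). The most were in DN194756_c0, with 15 16-high and 4 3-high transcripts. Identical counts in every library were shared with another transcript of the component by 49 of the 774 3-high and 16-high transcripts, so that the transcripts of a component are not independent measurements. Whether the same molecules were counted for each of them was not examined. Sums over a component would then hold such molecules more than once.

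The 334 transcripts between the limits took 9.77 to 14.4% of the counts of the members in the 19 libraries. Of the 232 with at least 12 counts, R ranged from -2.99 to 2.94 (median -0.56), and it was within 1 of 0 in 87. In 23 components no transcript lay between.

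The totals add transcripts that were chosen for opposite differences, so that a sum closer to equal than its parts follows from the rule. Summing all transcripts of a component, the log2 ratio of the 3 to the 16 libraries had a median of -0.33, the middle 50% of components lay between -1.30 and 0.35, and it was within 1 of 0 in 83 of 150 (55.3%). The share was 36.1% of the 24286 components with at least 5 counts, whose median was -0.22, and 56.3% of the 1641 others that met the rule. No test was made. Totals were lower in the 3 for 102 components and higher for 48. This direction depended on the scaling. The TMM factors were 0.71, 0.75 and 0.79 in SD1, SD2 and SD5, and 0.86 (SD18) to 1.24 (SD9) in the 16. With library sizes scaled by them, the same 150 components had a median of 0.19, and 85 of them were higher in the 3. The median of all components then was -0.05, and the median R of all tested transcripts moved by 0.12.

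In 45 of the 150 the totals themselves did not overlap between the 3 and the 16, beside 34.8% of all 24286 components. In 4 components the total was more than 8-fold higher in the 3: DN196556_c5 (1962 ± 562.9 CPM against 38.2 ± 13.5; log2 ratio 5.67), DN198091_c3 (2495 ± 1691 against 63.3 ± 42.5; 5.29), DN197661_c0 (904.9 ± 189.2 against 64.2 ± 15.7; 3.81) and DN198942_c0 (926.5 ± 422.9 against 110.8 ± 78.5; 3.06), each as mean ± SD with n = 3 and n = 16. In 5 it was more than 8-fold lower: DN197339_c1 (66.4 ± 34.2 against 2207 ± 1327; -5.04), DN198319_c0 (99.8 ± 53.1 against 1549 ± 1952; -3.95), DN200997_c2 (145.7 ± 59.3 against 2184 ± 624.4; -3.90), DN197045_c0 (225.5 ± 83.8 against 2231 ± 1099; -3.30) and DN200290_c2 (232.8 ± 81.5 against 1984 ± 600.3; -3.09). Only DN198319_c0 among these 9 had totals that overlapped between the groups. In DN196556_c5, DN196556_c5_g4_i1 alone had 644.2, 1142 and 881.4 CPM in the 3 while its partner DN196556_c5_g7_i1 reached 67.2 CPM at most in the 16, so that the partners were far from balanced.

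**Figure D3:**
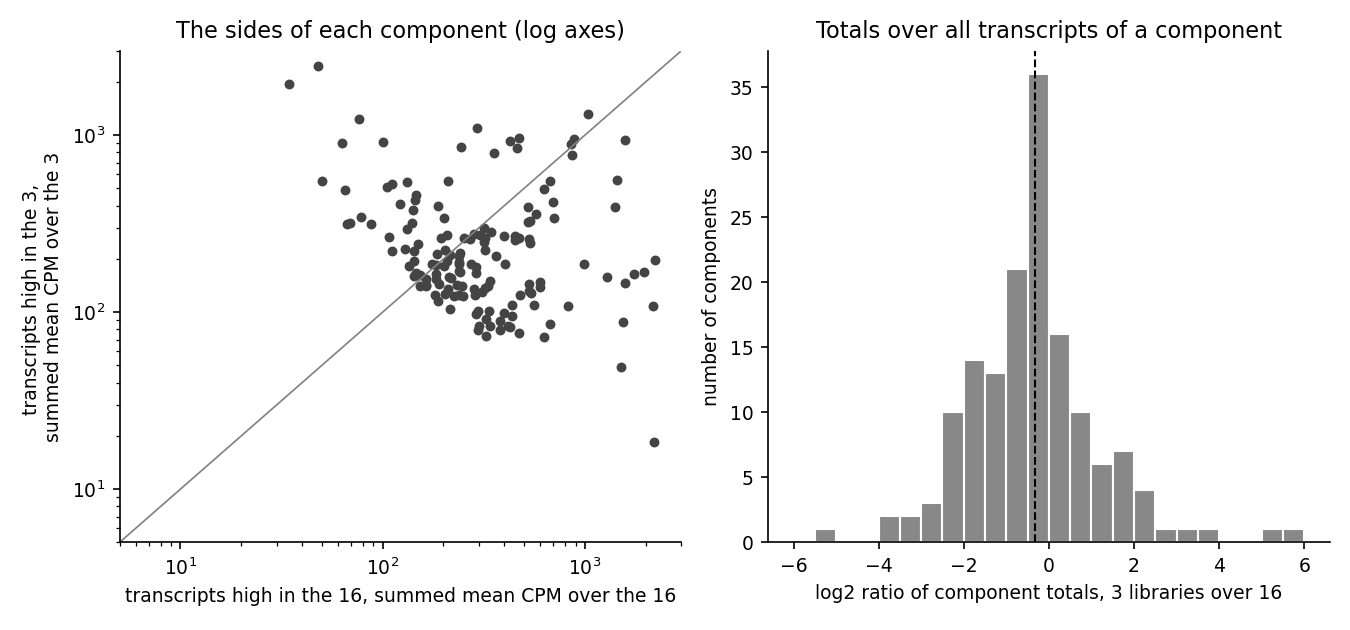
Left, summed mean CPM (log axes) of the 16-high side over the 16 libraries against that of the 3-high side over the 3 libraries, 1 point for each of the 150 components, with the line of equality. Right, number of components by log2 ratio of the total over all transcripts, 3 libraries over 16, with the median of -0.33 as a dashed line. Most totals lie within 1 of 0, and 9 lie beyond 3 in either direction.

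The low side of the components was rarely empty and differed between them. For the shares below, counts were summed over libraries, so that libraries with more counts weigh more. In the 16 this was SD9 above all, with 21542260 of 61230068 counts. The 3-high share of the on-side counts in the 16 libraries had a median of 1.28% over components, was under 1% in 71 and over 10% in 5. It was lowest in DN199481_c1 (0.00859%) and highest in DN196889_c3 (42.0%) and DN198091_c3 (23.3%). The 16-high share in the 3 libraries had a median of 3.98%, was under 1% in 28 and over 10% in 31, and was highest in DN197339_c1 (68.8%) and DN194756_c0 (46.0%). Each share depends on the levels of both sides, so that it does not by itself show how empty a low side was. The 3-high side in the 3 and the 16-high side in the 16 averaged 18.4 and 2198 CPM in DN197339_c1. They averaged 1231 and 76.7 CPM in DN196889_c3. Both shares of a component could differ: DN197045_c0 had 0.03% 3-high counts in the 16 and 12.6% 16-high counts in the 3, while DN201038_c3 had 12.7 and 2.15%. The same sides averaged 196.9 and 2230 CPM in DN197045_c0, and 927.6 and 428.5 CPM in DN201038_c3.

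Among the 16 libraries, the low side was not uniform. The pooled 3-high share was 0.857% in SD7 (T + pH), 0.938% in SD10 (control) and 1.05% in SD9 (pH), and 1.58 to 2.34% in the other 13. The summed 3-high level of DN201038_c3 was 2.87 CPM in SD7, 4.50 in SD9 and 17.6 in SD10, and 11.4 (SD18) to 175.3 CPM (SD13) elsewhere among the 16. That of DN198327_c6 was 1.91, 2.41 and 5.51 CPM in the same libraries and 15.2 to 71.6 CPM in the other 13. DN198806_c1 had 1.27, 2.79 and 6.61 CPM in SD7, SD9 and SD10 and 11.4 to 63.0 CPM in the others. DN194211_c0 did not follow this order, with 0 to 15.2 CPM in the 16 and its highest value in SD18. The 3-high sum lay below the median of the 16 in 113 of the 150 components in SD10, 108 in SD7, 100 in SD9 and 92 in SD18, and in 39 to 79 in each of the others. SD18 had the fewest counts of all libraries and SD9 the most. These libraries were picked out after their values were seen, they come from 4 different treatments, and the difference was not tested.

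**Figure D4:**
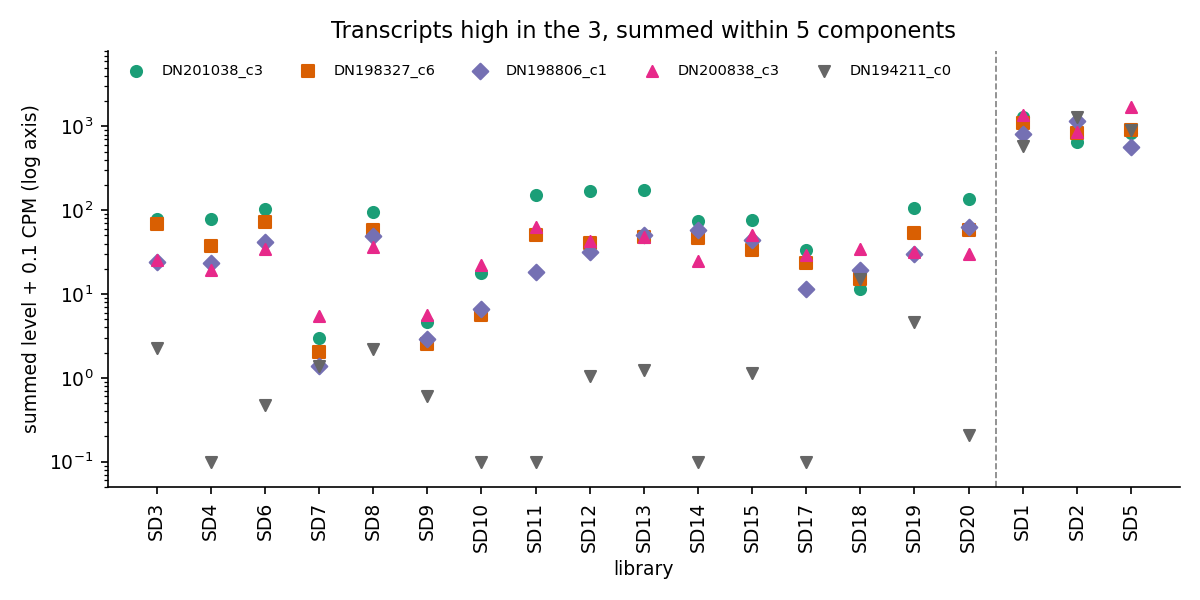
Summed level (CPM + 0.1, log axis) of the 3-high transcripts of 5 components in each library. In DN201038_c3, DN198327_c6 and DN198806_c1 the points of SD7, SD9 and SD10 lie below 18 CPM and mostly below those of the other libraries left of the dashed line, and the values of SD1, SD2 and SD5, right of it, are 568.3 CPM or more.

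The coefficient of variation of the 16-high transcripts over the 16 libraries had a median of 0.38, against 0.46 for the 18076 transcripts with at least the lowest member mean (3.56 CPM) in these libraries, and it was above 1 in 7.05% of the members and in 5.99% of that set. That of the 3-high transcripts over the 3 had a median of 0.34, against 0.39 for 20419 transcripts with at least 3.51 CPM, and it was above 1 in 6.90 and 9.07%. These sets were not matched on level. Single libraries carried some members. In 12 3-high transcripts of 7 components, over 80% of the level in the 3 came from 1 library, for example in DN198064_c0_g3_i1 (6.26, 259.9 and 9.35 CPM in SD1, SD2 and SD5) and in DN196549_c0_g2_i3 (136.1, 0.42 and 6.01 CPM). In 7 16-high transcripts of DN199214_c1, DN198687_c0 and DN199705_c0, over 50% of the level in the 16 came from 1 library. The total of DN199214_c1 was 6236 CPM in SD4 and at most 1176 CPM in any other library.

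A single RT-qPCR transcript of the study belongs to a component that met the rule, at rank 655 and so outside the 150, and it is described here because it was noticed after the values were seen. The transcript is annotated as a serine/threonine protein phosphatase, an enzyme class that removes phosphate from proteins. DN198856_c0_g2_i4 was 16-high (R -3.97), with 3.91, 1.27 and 1.34 CPM in SD1, SD2 and SD5 and 16.4 to 70.7 CPM in the 16. Its partner DN198856_c0_g2_i1 of the same Trinity gene had 36.8, 32.1 and 32.1 CPM in the 3 and at most 5.28 CPM in the 16. This pair was a small part of the component, whose total was 1033, 815.4 and 850.0 CPM in the 3 and 187.2 to 701.5 CPM in the 16. The primers of that assay are shown because they were designed on 1 partner of such a pair. Whether they also match the other partner was not examined, since the transcript sequences were not used here.
Forward primer: atgcaggcccttgagtttgt
Reverse primer: tgataccgttgctctgccag

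The treatments were then compared for the members. The comparison of all 19 libraries is not free of the choice of members, because 2 of the 5 T libraries and 1 of the 5 pH libraries are SD1, SD2 and SD5, so that any transcript high in the 3 has a higher mean in T and in pH. With edgeR's quasi-likelihood F-test in 1 model of the 4 treatments, no transcript and no component sum was a differentially expressed gene (DEG; FDR below 0.05 with Benjamini-Hochberg adjustment over all features and an absolute log2 fold change above 0.3) in any of the 6 pairwise comparisons, members included (0% of 51953 transcripts and of 24286 components). At an unadjusted p below 0.05, 301 of the 377 3-high transcripts were higher in T than in the control, beside 15.7% of all transcripts, and 161 were higher in pH than in the control, beside 4.95%. In T + pH, 338 were lower than in T, beside 26.0%, and 218 lower than in pH, beside 10.3%. These directions are those that the membership of the 3 libraries gives. Of the 397 16-high transcripts, 0 to 14 were below 0.05 in a comparison, which was 1.89% of their tests over the 6 comparisons beside 11.3% of all transcript tests.

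The calls changed with the tool and with 1 library. Over the 6 comparisons together, DESeq2 called 748 DEGs in 2262 tests of 3-high transcripts and 19 in 2382 tests of 16-high transcripts. Of all transcript tests, it called 3.94%. It called 10 in 900 tests of the component sums of the 150, beside 1.67% of all component tests. Without SD5, edgeR called 3 in 900 tests of these component sums, beside 0.225% of all component tests. It called 222 in 2262 tests of 3-high and 6 in 2382 tests of 16-high transcripts, beside 1.05% of all transcript tests. These transcript calls were all between T + pH and T. SD1 and SD2 are then the libraries in which these transcripts were high, and both are T libraries. Without SD1, SD2 and SD5, neither tool called a member transcript or a member component sum (0% of all tests called by edgeR, 0.0149% of transcript tests and 0.0227% of component tests called by DESeq2).

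In the 16 libraries, 291 of the 377 3-high transcripts and all 397 16-high transcripts had at least 5 counts and were tested, and the 3-high were tested there at their low levels. At an unadjusted p below 0.05, between T and the control, 6 3-high and 15 16-high transcripts passed, beside 4.57% of all 39230. Between pH and the control, 8 and 14 passed, beside 3.69%. Between T + pH and the control, 1 and 14 passed, beside 3.26%. Between pH and T, 25 and 18 passed, beside 5.98%. Between T + pH and T, 14 and 22 passed, beside 4.88%, and between T + pH and pH, 13 and 12 passed, beside 4.22%. Over the 6 comparisons, 3.84% of the tests of 3-high and 3.99% of those of 16-high transcripts passed, beside 4.43% of all, and the 3-high share was above the background between pH and T (8.59%) and between T + pH and pH (4.47%) and below it in the others. With DESeq2 on the same libraries, 1.78% of the tests of 3-high and 5.50% of those of 16-high transcripts passed, beside 2.14% of all, so that the comparison with the background depended on the tool. In all these comparisons the background was not matched to the members on level. Features to which DESeq2 gave no p were counted as tests.

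Component sums add the partners to 1 value. In the 16 libraries, 6 of 150 passed an unadjusted p of 0.05 between T and the control (4.93% of all 18356 components), 5 between pH and the control (4.32%), 5 between T + pH and the control (3.92%), 7 between pH and T (6.69%), 5 between T + pH and T (5.34%) and 2 between T + pH and pH (4.54%). Over the 6 comparisons this was 3.33% of the members' tests beside 4.96% of all, and with DESeq2 5.11% beside 2.49%. In all 19 libraries, 21 of 150 passed between T and the control (13.2% of all), 6 between pH and the control (5.35%), 3 between T + pH and the control (1.66%), 10 between pH and T (6.73%), 18 between T + pH and T (21.5%) and 6 between T + pH and pH (9.45%). Over the 6 comparisons of all 19 libraries, 7.11% of the tests of the members' sums passed, beside 9.65% of all component tests.

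DN199705_c0 (rank 46) had the smallest p of the component sums in the 16 libraries. Its total was 370.4, 443.8, 400.3 and 582.0 CPM in the 4 pH libraries SD3, SD9, SD11 and SD14, and 226.4, 98.9 and 137.1 CPM in the T libraries SD8, SD18 and SD20. The groups did not overlap, with means of 449.1 ± 93.6 (SD, n = 4) and 154.1 ± 65.5 CPM (SD, n = 3). The T libraries SD1 and SD2 had 275.0 and 207.1 CPM and the pH library SD5 had 355.2 CPM, which left the groups apart. The log2 fold change was 1.42 ± 0.40 (SE) in the 16 libraries, and edgeR's FDR over all components was 0.54. In all 19 it was 1.03 ± 0.34 (SE), with an FDR of 0.72. Most of this component in the 16 libraries was the 16-high transcript DN199705_c0_g1_i2, which had 397.6 ± 89.1 CPM in pH and 140.0 ± 62.4 CPM in T over the 16 libraries (log2 fold change 1.41 ± 0.42, FDR 0.59 by edgeR).

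The other features with the smallest p in the 16 libraries also missed the FDR limit. DN193255_c0_g1_i2 (rank 57) had 70.8 to 176.9 CPM in the 4 pH libraries and 22.8 to 44.4 CPM in the 3 T libraries, with a log2 fold change of 1.59 ± 0.42 and an edgeR FDR of 0.55. DN200717_c1_g4_i2 (rank 26) had 349.4 to 633.6 CPM in pH and 76.1 to 181.8 CPM in T (1.80 ± 0.56, edgeR FDR 0.64). Both are 16-high, and SD1, SD2 and SD5 had at most 7.82 CPM of either. The total of DN198942_c0 (rank 41) was 107.9 to 364.8 CPM in the control and 17.7 to 93.1 CPM in pH among the 16 libraries (-1.65 ± 0.49, edgeR FDR 0.90).

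In the fit of all 19 libraries the 5 component sums with the smallest p were DN199705_c0, described above, and 4 components in which SD1, SD2 and SD5 or a single library had the highest levels. DN198731_c0 (rank 129) had 799.8 and 395.2 CPM in SD1 and SD2, 110.3 to 297.5 CPM in the 3 other T libraries and 58.7 to 140.2 CPM in T + pH (log2 fold change of T + pH against T -2.13 ± 0.61, edgeR FDR 0.23). Without SD1, SD2 and SD5 it was -1.12 ± 0.36, with an FDR of 0.88. DN196556_c5 (rank 61) had 1394 and 2519 CPM in SD1 and SD2 and 18.7 to 60.8 CPM in the other T libraries (-4.75 ± 1.43, FDR 0.23), and DN197247_c0 (rank 147) had 227.2 and 511.0 CPM against 45.6 to 153.3 CPM (-1.78 ± 0.58, FDR 0.23). DN199214_c1 (rank 67) differed between T and the control by -3.14 ± 0.95 (FDR 0.33), with 6236 CPM in the control library SD4 and 144.6 to 328.2 CPM in the 3 other controls, against 45.6 to 319.5 CPM in T.

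**Figure D5:**
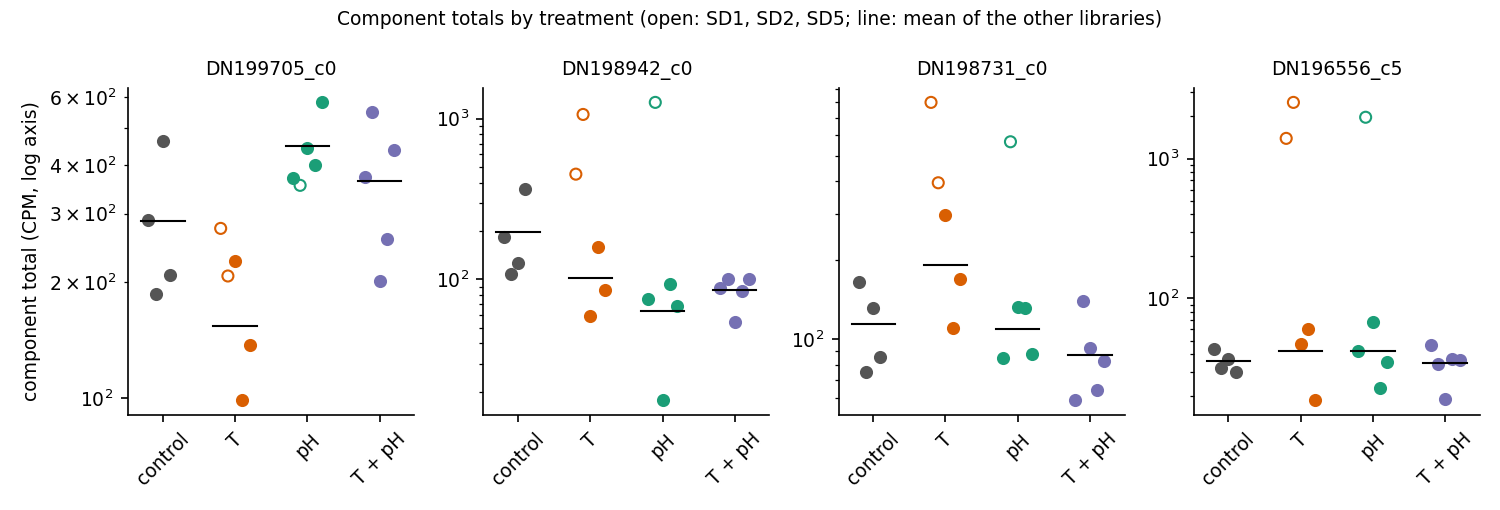
Component totals (CPM, log axis) by treatment for 4 components, with 1 point for each library, open points for SD1, SD2 and SD5, and a line at the mean of the other libraries. In DN199705_c0 the pH libraries (355.2 to 582.0 CPM) lie above the T libraries (98.9 to 275.0 CPM) with or without the open points, while in DN196556_c5 only the open points exceed 68.2 CPM.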

How the data were processed

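CEL-Seq2 libraries of 19 S. durum fragments were analysed. The authors cut reads at 60 bp, aligned them by bowtie2 against a Trinity assembly with spike-in sequences added, and tallied UMIs per transcript. The deposited values are counts without normalization. Whether they include a correction for shared UMIs is not given in the sources used here. Isoforms of a component can share reads, so that their split is uncertain. The P. onkodes table was not used here.

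CPM were computed from column totals. Members and lists were chosen with earlier results of these data known. Transcripts and component sums with at least 5 counts were tested with edgeR (4.0.16, R 4.3.3) by the quasi-likelihood F-test in its earlier form with robust estimation and TMM scaling. The model held all 4 treatments, with Benjamini-Hochberg adjustment over all features. SE is the absolute log2 fold change over the square root of F. DESeq2 (1.42.0) was an alternative. Scripts were tested on simulated data. All 36 pairs of libraries of the same treatment differed by more than sampling noise (chi-square test), so that none was taken as a repeat deposit of another. This does not show that they are independent. The paper calls the fragments of a treatment biological replicates, but that they came from separate plants is not stated. The p-values weigh a treatment difference against the spread between these libraries. Limits for 0 counts are 3 counts over the pooled libraries and cover counting error only. Named features are the 20 highest ranked components with their leading transcripts, the last component kept and the first left out, up to 5 component sums and up to 5 features of the 16-library fits with the smallest p, and others named for an extreme value after values were seen.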

Additional observations from a re-analysis of the deposited data

Results flagged for a closer look

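In each treatment, a library was set apart when its gap to the nearest other library exceeded Dixon's 95% value for the range of its treatment. This was done for the pooled 3-high share, the members' share of all counts and the totals of the first 20 components, which made 88 sets of libraries, and 12 were met. Chance alone gives about 1 in 20. The members were chosen and ranked on these same libraries, so that nothing is read from the number met.

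The pooled 3-high share was far from the rest in SD5 among pH libraries (95.3% against 1.05 to 2.11%). This follows from the rule, which chose the 3-high transcripts by their level in SD1, SD2 and SD5. In T + pH, the pooled 3-high share was far from the rest in SD7 (0.857% against 1.87 to 2.04%). The members' share of all counts was 5.65% in SD5 against 7.19 to 7.80% in the other pH libraries. SD1 and SD2 were not set apart in T, since each has the other beside it.

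Among totals in pH libraries, DN198327_c6 was low in SD9 (480.2 CPM against 995.6 to 1137), DN194206_c0 was high in SD11 (3345 against 975.8 to 1236), DN200548_c2 was high in SD5 (798.0 against 309.4 to 406.9) and DN195354_c0 was high in SD14 (745.0 against 378.3 to 462.7). In T + pH, DN199311_c0 was high in SD7 (1737 CPM against 732.8 to 888.4), DN200384_c0 in SD19 (1854 against 295.1 to 545.6) and DN197045_c0 in SD12 (4495 against 1706 to 2351). In T, DN197797_c2 was high in SD20 (987.1 CPM against 401.7 to 569.2) and DN198687_c0 in SD8 (5477 against 127.8 to 1506).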

How the results depend on the processing

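No paired analysis was possible because each replicate number of S. durum occurs in 1 treatment only. Over the 6 comparisons, edgeR called 0 transcripts and 0 component sums with RLE size factors, with its current quasi-likelihood method, without the filter and in 16 libraries. Calls below are counted over the 6 comparisons, so that a feature can count more than once. DESeq2 made 12291 calls of transcripts, 767 of them of members, and 2438 of component sums, 10 of them of members, and in the 16 libraries, an alternative added after the data were seen, 35 and 25 with 0 members. Leaving out 1 library gave 0 to 3182 calls of transcripts (members 0 to 228) and 0 to 315 of component sums (members 0 to 3), and only leaving out SD5 gave any. The number of components that met the rule was 1318 to 1763 with TMM scaling, thinning to 262942 counts, a pseudocount of 1 CPM or a minimum of 30 counts, 870 with a limit of 4 on R, and 1758 to 1802 without 1 library. Of the 150, 133 to 150 stayed in the first 150 under the former settings, 100 with a limit of 4 and 135 to 150 without 1 library, and 76 to 90 lead pairs lay in 1 Trinity gene under all settings. The median 3-high share in the 16 libraries was 1.90%, and 2.54% with TMM scaling, 1.13% with a limit of 4 and 1.80 to 2.26% without 1 library. The median 16-high share in the 3 was 4.73%, and 3.76% with TMM scaling, 3.99% after thinning, 2.55% with a limit of 4 and 4.03 to 4.84% without 1 library. Both shares were computed from counts of the members chosen anew under each setting. Scaling therefore moved them only through which transcripts were members, and a limit of 4 on R asks for a larger difference between the groups. How much each choice contributed was not tested. The median log2 ratio of totals over the first 150 components as ranked anew under each setting was 0.085 with TMM scaling, with a changed sign (0.19 over the original 150), and -0.39 to -0.28 without 1 library. Depth limits the low side most in SD18.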
